A study of Rattus norvegicus with 20 samples.

Results

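The chromodomain helicase DNA-binding (CHD) family of chromatin remodellers was followed gene by gene in the medial prefrontal cortex (mPFC) of rats. Members were taken by symbol, *Chd1* to *Chd9*. They were 9 of the 31038 gene symbols in the count matrix, and all 9 were among the 16605 symbols that reached 5 reads in 10 or more rats and were tested. The study asked which transcripts differ long after repeated exposure to lysergic acid diethylamide (LSD), a psychedelic acting mainly on serotonin receptors. Both groups were male Sprague-Dawley rats, an outbred stock, entered at 6 to 8 weeks of age and 180 to 200 g. The 10 LSD rats were given 0.16 mg/kg of LSD intraperitoneally on alternate days over 90 days, and the 10 Saline rats received sterile saline on the same schedule. By the labels, dosing had been stopped for 3 weeks when tissue was taken, whereas the study's methods give a longer interval and an older starting age, in both cases for both groups alike. Poly(A) RNA from the mPFC of one hemisphere was sequenced, with 1 library per rat, so each value is an average over all cells of the dissected tissue.

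CHD proteins use ATP to slide, space or evict nucleosomes, and they carry paired chromodomains, which bind histone tails, next to an SNF2-type motor. *Chd1* and *Chd2* encode the subfamily with a DNA-binding domain and work along transcribed genes. *Chd3*, *Chd4* and *Chd5* encode the alternative motors of NuRD, a complex that joins remodelling to histone deacetylation, with *Chd5* expressed mostly in neurons. *Chd6*, *Chd7*, *Chd8* and *Chd9* encode the large proteins with BRK domains. Mutations in several members cause human neurodevelopmental disorders, among them *CHD8* in autism, *CHD7* in CHARGE syndrome and *CHD2* in epileptic encephalopathy.

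Promoter sequence is shown for *Chd6* and *Chd9*, the members with the smallest p-values between LSD and saline, and for *Chd4*, which did not pass the threshold. Each window holds the 250 bases before the annotated start in RefSeq on GRCr8, written 5′ to 3′ on the strand of the gene, with CCAAT and GGGCGG on either strand in capitals. *Chd6* lies on the minus strand at chr3:170177436-170177685, *Chd9* on the minus strand at chr19:32337489-32337738, the most upstream of its 14 listed starts, and *Chd4* on the plus strand at chr4:159584568-159584817.
Chd6: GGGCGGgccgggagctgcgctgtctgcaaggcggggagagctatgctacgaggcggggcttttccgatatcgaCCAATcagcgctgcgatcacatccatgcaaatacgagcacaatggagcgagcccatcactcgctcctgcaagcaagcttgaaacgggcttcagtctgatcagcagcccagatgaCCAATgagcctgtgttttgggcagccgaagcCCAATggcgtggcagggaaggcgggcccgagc
Chd9: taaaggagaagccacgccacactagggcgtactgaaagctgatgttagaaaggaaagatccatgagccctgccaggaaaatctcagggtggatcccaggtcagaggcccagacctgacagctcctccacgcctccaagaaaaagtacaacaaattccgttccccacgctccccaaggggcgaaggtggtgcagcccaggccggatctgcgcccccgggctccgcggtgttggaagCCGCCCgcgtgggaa
Chd4: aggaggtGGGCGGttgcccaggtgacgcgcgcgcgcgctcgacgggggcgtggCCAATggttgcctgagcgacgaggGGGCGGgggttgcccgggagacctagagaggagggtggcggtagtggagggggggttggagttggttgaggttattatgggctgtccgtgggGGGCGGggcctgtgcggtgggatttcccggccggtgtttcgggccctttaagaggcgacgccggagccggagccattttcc
The *Chd6* window held 18 CG dinucleotides, 3 CCAAT boxes and 1 GGGCGG. The *Chd9* window held 14 CG dinucleotides and 1 GGGCGG, on the opposite strand. The *Chd4* window held 25 CG dinucleotides, 1 CCAAT box and 3 GGGCGG. Over 27457 rat promoters of the same length the median was 6 CG dinucleotides, and 34.3% held CCAAT and 32.4% held GGGCGG. RefSeq windows matched 6 of the 9 members. *Chd3* and *Chd5* each held 2 GGGCGG, which overlap each other in *Chd3*, with 14 and 40 CG dinucleotides. *Chd1* held 4 CG dinucleotides and neither motif, but its listed start lies inside the span of the gene. None of the 6 windows held CACGTG, found in 5.78% of promoters, or TGACGTCA, found in 1.69%, and such matches are descriptions of letters only.

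Library depth, counted as reads assigned to genes, was 16346629 to 25552681 for the LSD group and 11098076 to 24201351 for the Saline group. Levels below are reads per 1000000 reads on tested genes after TMM normalisation (RPM), which are not divided by transcript length, so levels were not compared between genes. Of 50 cell type markers in 10 lists, 49 were tested, with 2 higher and 5 lower, near the 6.48% and 8.54% over all genes tested. *Map2* and *Gad2* were higher, and *Tubb3*, *Slc32a1*, *Sst*, *Olig1* and *Sox10* were lower, so inhibitory neuron markers went both ways. All 5 markers of cortical excitatory neurons were present. Their summed level ran from 1871 to 2591 RPM in LSD rats and from 1981 to 2985 RPM in saline rats. Summed choroid plexus markers did not exceed 12.6 RPM in any rat. Saline replicate 9 stood apart. The mean deviation from all rats of the 10% of genes with the longest genomic span, minus that of the 10% with the shortest, was -0.448 in it on the log2 scale, against -0.190 to 0.0531 in the other saline rats and 0.0196 to 0.160 in LSD rats. The fold changes of the members it touches are given with and without it.

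Transcripts of 4 of the 9 members were higher in LSD rats, *Chd1*, *Chd2*, *Chd6* and *Chd9*, and none was lower (edgeR quasi-likelihood F test, adjusted p under 0.05 over all genes tested). The increases in mean RPM were 27.7% for *Chd1*, 12.0% for *Chd2*, 25.2% for *Chd6* and 27.1% for *Chd9*. Over all genes tested, 6.48% passed as higher and 8.54% as lower (1076 and 1418 genes, and 1504 and 858 when scaled by total counts). The 3 NuRD motors, *Chd3*, *Chd4* and *Chd5*, and *Chd7* and *Chd8* did not pass. All 9 members had fold changes above 0, with a log2 median of 0.088, whereas 50.4% of all genes tested lay above 0 and their median was 0.0022. *Chd7* turned below 0 with correction for gene span and in 7 of 20 fits with a rat left out, so that not all 9 kept this direction. Nothing in the labels says whether rats shared litters or cages, so p-values measure the spread between these rats.

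**Figure D1:**
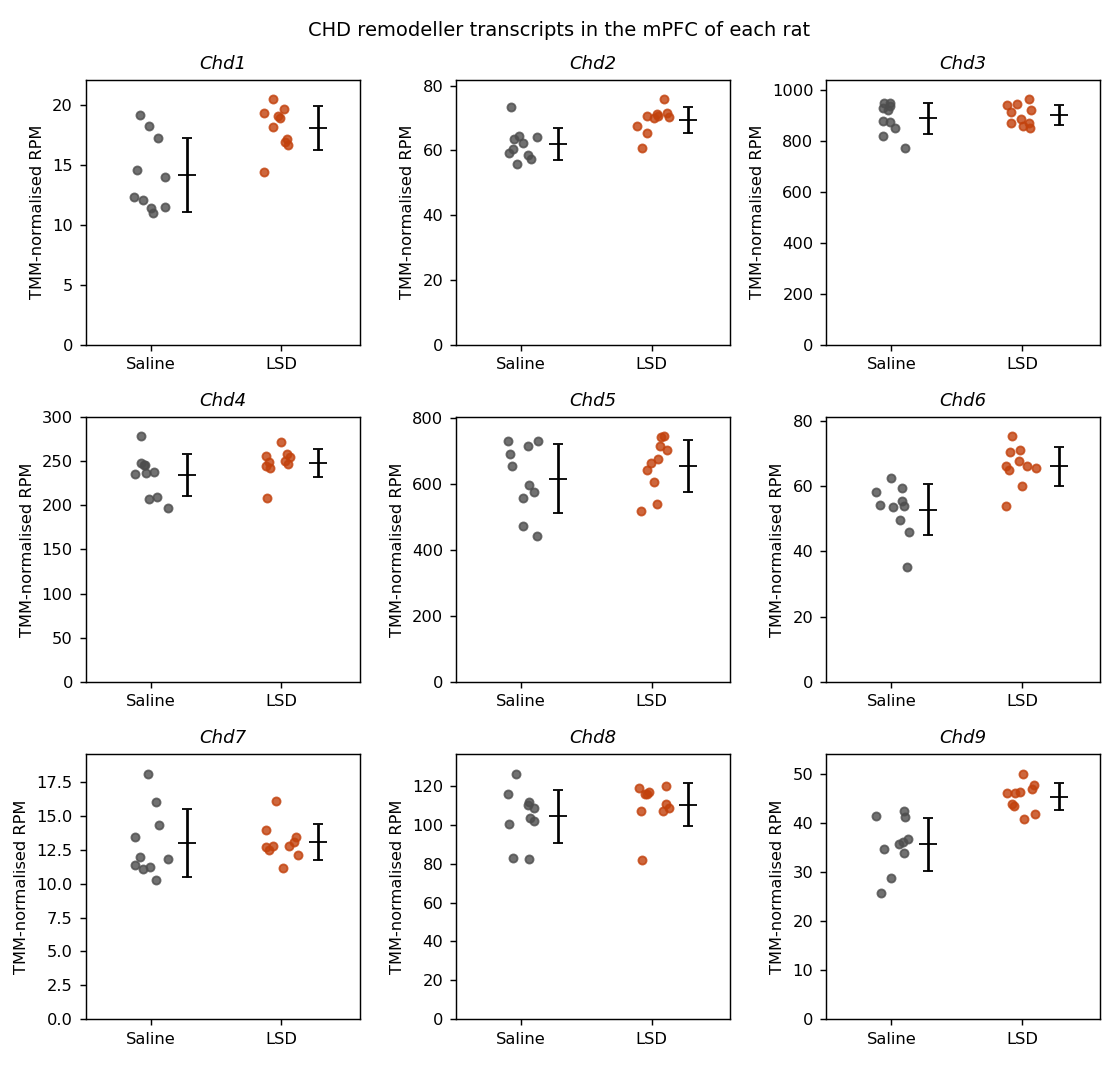
TMM-normalised RPM (vertical axes, each from 0) of the 9 CHD members in the 10 saline rats (grey points) and 10 LSD rats (orange points), with the mean and SD beside each group. For *Chd6* and *Chd9*, 8 of 10 LSD rats lie above the highest saline rat. At most 1 does for *Chd2*, which passed the test, and for *Chd3*, *Chd4*, *Chd7* and *Chd8*, which did not.

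The first subfamily rose in both of its members. *Chd1*, whose protein reads methylated histone tails and keeps nucleosomes spaced behind RNA polymerase, had 14.4, 18.5 and 20.4 RPM as lowest, median and highest value in LSD rats and 10.9, 13.1 and 19.2 RPM in saline rats. All 10 LSD rats lay above the saline median, and 6 of 10 saline rats lay below the lowest LSD rat. Saline values fell into a low run of 7 rats, at 14.6 RPM or less, and 3 rats at 17.2 RPM or more, within the LSD range. Saline replicates 1, 3, 4 and 5, the shallowest saline libraries, held the lowest values, 10.9 to 12.1 RPM. The high rats, Saline replicates 2, 8 and 10, had 18216632 to 24201351 reads, but Saline replicate 9, with 19805283, was at 12.3 RPM. LSD replicate 1, the lowest LSD rat, was also the shallowest LSD library. The part of depth in these values was not tested. The mean was 18.0 ± 1.80 RPM (SD, n = 10) with LSD and 14.1 ± 3.05 with saline, a log2 fold change of 0.35 (SE 0.10, edgeR adjusted p = 0.0241). *Chd1* rested on 124 to 516 reads per rat, and its 95% interval was wide, 0.14 to 0.55. It stood at 0.33 (adjusted p = 0.0432) without Saline replicate 9 and at 0.36 (adjusted p = 0.0213) with reads drawn down to the smallest library. After correction for gene span it just missed the threshold (0.28, adjusted p = 0.0510).

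*Chd2*, which deposits a variant histone at active genes, ran from 60.7 to 75.8 RPM in LSD rats, with a median of 70.4, and from 55.8 to 73.5 RPM in saline rats, with a median of 61.4. Of the LSD rats, 9 of 10 lay above the saline median, but only 1 lay above the highest saline rat, Saline replicate 8. Means were 69.4 ± 4.06 RPM with LSD and 62.0 ± 5.01 RPM with saline (SD, n = 10). The log2 fold change was 0.16 (SE 0.049, 95% interval 0.062 to 0.27, edgeR adjusted p = 0.0289). This call was the least firm of the 4. It was lost without LSD replicate 4 (0.15, adjusted p = 0.0570), without Saline replicate 4 (0.16, adjusted p = 0.0534), and after correction for gene span (0.075, adjusted p = 0.280), and it stood without Saline replicate 9 (0.15, adjusted p = 0.0481).

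None of the NuRD motors passed the test. *Chd3*, the member with the most reads, ran from 852 to 963 RPM in LSD rats and from 772 to 950 RPM in saline rats, with medians of 899 and 901 RPM. Its log2 fold change was 0.022 (SE 0.046, 95% interval -0.073 to 0.12, edgeR adjusted p = 0.793). *Naa38*, a subunit gene of an N-terminal acetyltransferase, overlaps *Chd3* in RefSeq, and the strand setting of the counting was not given, so shared reads cannot be told apart. *Naa38* itself went the other way, at 31.1 RPM with LSD and 39.9 RPM with saline (log2 fold change -0.36, SE 0.074, edgeR adjusted p = 0.00666).

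*Chd4*, the most widely used NuRD motor, ran from 208 to 271 RPM in LSD rats and from 197 to 278 RPM in saline rats. The LSD rats were tightly grouped except for 1: 9 of 10 lay between 243 and 271 RPM, above the saline median of 237, and LSD replicate 10 lay at 208 RPM. The log2 fold change was 0.084 (SE 0.058, 95% interval -0.035 to 0.20, edgeR adjusted p = 0.339), 0.11 (adjusted p = 0.184) without that rat and 0.059 (adjusted p = 0.496) without Saline replicate 9, the lowest saline rat. *Chd5* was the most variable of the NuRD motors, from 519 to 745 RPM in LSD rats and from 443 to 732 RPM in saline rats. Its log2 fold change was 0.088 (SE 0.092, 95% interval -0.10 to 0.28, edgeR adjusted p = 0.558), and 0.044 without Saline replicate 9, which had the lowest value.

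Rats with the lowest *Chd5* were among those lowest in excitatory neuron markers. In the LSD group, replicates 7, 9 and 10 had the 3 lowest *Chd5* values, 539, 605 and 519 RPM, and the 3 lowest summed excitatory markers, 1928, 1871 and 1898 RPM. In the saline group, replicates 2 and 9 had the lowest *Chd5*, 473 and 443 RPM, with 1981 and 2081 RPM of those markers, among the 3 lowest sums. The same LSD rats had the highest LSD astrocyte sums, 2155, 2301 and 2360 RPM, but Saline replicate 4 had 2426 RPM with *Chd5* at 732 RPM. Their libraries were deep, at 25552681, 22770382 and 23841712 reads, though LSD replicate 8 had 25089120 with *Chd5* at 644 RPM. Saline replicates 2 and 9 were the deepest saline libraries. The general neuron markers, with median sums of 5778 RPM for LSD and 5772 RPM for saline, went with *Chd5* only in part. LSD replicates 9 and 10 summed to 5463 and 5179 RPM and Saline replicates 2 and 9 to 5274 and 5213 RPM. Against this, LSD replicate 7 summed to 5780 RPM, and Saline replicate 4 to 5212 RPM with *Chd5* at 732 RPM. Neither the 5 excitatory markers nor *Chd5* passed the test between LSD and saline. The parts of cell makeup and depth in these values were not tested. In bulk tissue, fewer cells of a type and less RNA per cell cannot be told apart.

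The last subfamily split into 2 members that rose and 2 that did not pass. *Chd9*, a coactivator first described with nuclear receptors, ran from 40.9 to 50.2 RPM in LSD rats, with a median of 46.2, and from 25.8 to 42.6 RPM in saline rats, with a median of 36.0. All 10 LSD rats lay above the saline median and 8 above the highest saline rat, while 7 saline rats lay below the lowest LSD rat. Saline rats spread more than LSD rats, with 45.4 ± 2.80 RPM for LSD and 35.7 ± 5.39 RPM for saline (SD, n = 10). The log2 fold change was 0.35 (SE 0.074, 95% interval 0.19 to 0.50, edgeR adjusted p = 0.00697), and 0.30 (adjusted p = 0.00815) without Saline replicate 9, which held the lowest value. Among all genes tested *Chd9* ranked 233 by p-value.

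*Chd6*, a remodeller linked to responses to oxidative damage, ran from 54.0 to 75.2 RPM in LSD rats, with a median of 66.0, and from 35.0 to 62.4 RPM in saline rats, with a median of 54.1. Here too 8 LSD rats lay above the highest saline rat, and the exceptions were LSD replicate 1 at 60.1 RPM and LSD replicate 10 at 54.0 RPM. Means were 66.1 ± 5.91 RPM and 52.7 ± 7.82 RPM (SD, n = 10). The log2 fold change was 0.32 (SE 0.079, 95% interval 0.16 to 0.49, edgeR adjusted p = 0.0114), and 0.27 (adjusted p = 0.0109) without Saline replicate 9, again the lowest.

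*Chd8*, a repressor of beta-catenin target genes, ran from 82.1 to 120 RPM in LSD rats and from 82.6 to 127 RPM in saline rats. Of the LSD rats, 9 of 10 lay above the saline median of 106 RPM, and LSD replicate 10 lay below every saline rat. The log2 fold change was 0.080 (SE 0.075, 95% interval -0.075 to 0.23, edgeR adjusted p = 0.509), and 0.12 (adjusted p = 0.235) without that rat. Without Saline replicate 9 or Saline replicate 2, the lowest saline rats at 82.6 and 82.7 RPM, it was 0.046 in each case (adjusted p = 0.706 and 0.687). *Chd7*, which acts in neural crest and in the maturation of oligodendrocytes, had the fewest reads, 120 to 381 per rat. It ran from 11.2 to 16.2 RPM in LSD rats, with a median of 12.8, and from 10.2 to 18.2 RPM in saline rats, with a median of 11.9. Although 9 of 10 LSD rats lay above the saline median, the means were level, 13.1 ± 1.31 and 13.0 ± 2.52 RPM (SD, n = 10), since Saline replicates 8 and 3 stood at 18.2 and 16.1 RPM. Its log2 fold change was 0.0090 (SE 0.093, 95% interval -0.18 to 0.20, edgeR adjusted p = 0.961), an interval that holds a change of nearly 0.20 either way.

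Markers of the oligodendrocyte lineage were high in some rats with high *Chd7* but not in *Chd7*-high rats alone. In LSD replicate 9 the oligodendrocyte markers summed to 5328 RPM and the precursor markers to 402 RPM, both the highest of the LSD rats. In Saline replicate 8, the saline rat highest in *Chd7*, oligodendrocyte markers summed to 6891 RPM and precursor markers to 469 RPM, the latter the highest of the saline rats. Saline replicates 3 and 2, next in *Chd7* at 16.1 and 14.4 RPM, had 4918 and 6941 RPM of oligodendrocyte markers. Against this, Saline replicate 9 had 5845 RPM of oligodendrocyte markers with *Chd7* at 11.4 RPM, below the saline median, and Saline replicate 1 had the next highest precursor sum, 421 RPM, with *Chd7* at 12.0 RPM. Over all rats the 5 oligodendrocyte markers summed to 1980 to 5328 RPM with LSD and 1937 to 6941 RPM with saline, with 0 of 5 past the threshold, and the 5 precursor markers to 279 to 402 RPM and 318 to 469 RPM, with 2 of 5 lower, *Olig1* and *Sox10*. Their part in the *Chd7* values was not tested.

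The members did not vary one by one, since a few rats were extreme in several of them. Saline replicate 8 was the highest saline rat for 6 members (*Chd1*, *Chd2*, *Chd4*, *Chd6*, *Chd7* and *Chd8*), and Saline replicate 9 was the lowest for 6 (*Chd2*, *Chd4*, *Chd5*, *Chd6*, *Chd8* and *Chd9*). LSD replicate 10 was the lowest LSD rat for 5 members (*Chd2*, *Chd4*, *Chd5*, *Chd6* and *Chd8*) and the highest for *Chd3*. The 9 members together took 1962 to 2300 RPM in LSD rats and 1680 to 2182 RPM in saline rats.

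Ratios of members within a rat cancel shifts that all of them share, and they are given as a description without a test. Shifts that depend on gene span can remain, since *Chd9* and *Chd8* span 223110 and 59675 bases. Where only the first gene of a pair passed, the ratio restates the fold changes above. For each read of *Chd8* there were 0.415 ± 0.0523 reads of *Chd9* in LSD rats and 0.343 ± 0.0447 in saline rats (SD, n = 10). Of the LSD rats, 10 of 10 lay above the saline median, and LSD replicate 10, the lowest in *Chd8*, was highest at 0.534. For each read of *Chd7* there were 5.11 ± 0.810 reads of *Chd6* in LSD rats and 4.14 ± 0.752 in saline rats, with 8 of 10 above. Within the first subfamily, *Chd1* to *Chd2* stood at 0.260 ± 0.0283 and 0.227 ± 0.0419, with 9 of 10 above. Among the NuRD motors, *Chd3* to *Chd4* went the other way, at 3.65 ± 0.360 and 3.82 ± 0.291, with 9 of 10 LSD rats below the saline median and LSD replicate 10 highest of all rats at 4.62. *Chd5* to *Chd4* was level, at 2.64 ± 0.222 and 2.63 ± 0.331. As a share of all CHD reads, *Chd9* made up 2.14% with LSD and 1.77% with saline, *Chd6* 3.10% and 2.61%, and *Chd3* 42.5% and 44.1%, shares that depend on transcript length as well as number.

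**Figure D2:**
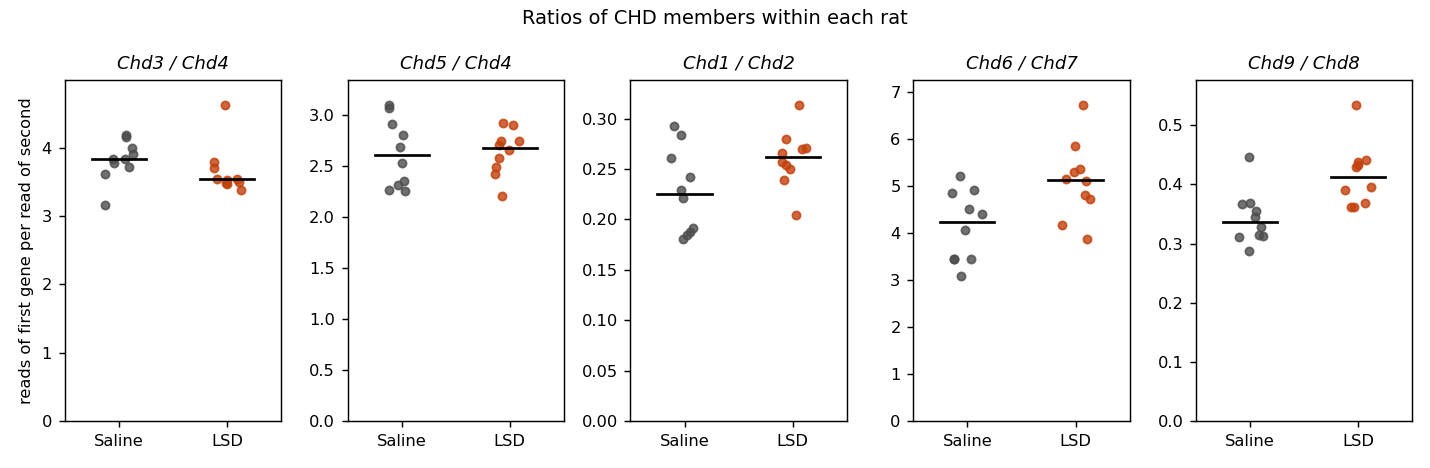
Reads of the first gene per read of the second (vertical axes, each from 0) in the 10 saline rats (grey) and 10 LSD rats (orange), with a line at each group's median, for 5 pairs of CHD members. All 10 LSD rats lie above the saline median for *Chd9* to *Chd8* and 9 of 10 lie below it for *Chd3* to *Chd4*, while *Chd5* to *Chd4* overlaps throughout.

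Gene span, the distance from start to end in the GRCr8 annotation, moved with the result. The median log2 fold change was -0.12 for the 10% of genes with the shortest span and 0.11 for the 10% with the longest, and the share called higher was 0.603% and 18.9%. Without Saline replicate 9 the medians were -0.10 and 0.090. The 4 members that rose had spans of 67366 bases (*Chd1*), 128882 (*Chd2*), 161277 (*Chd6*) and 223110 (*Chd9*). Of the members that did not pass, *Chd3* and *Chd4* spanned 26406 and 33245 bases, and *Chd5* and *Chd8* spanned 50855 and 59675 bases. With all genes split into 10 equal classes by span, *Chd5* and *Chd8* fell in the same class as *Chd1*. Their log2 fold changes were 0.088 and 0.080, so span did not cleanly separate the members that rose. *Chd7*, at 183492 bases, lay in the longest 10% with *Chd6* and *Chd9* but at a fold change near 0. Offsets for each rat's trend with span reduced the trend but did not fully remove it. With them the medians of the shortest and longest 10% were -0.037 and 0.0063, and 1.41% and 5.63% were called higher. *Chd9* then stood at 0.24 (edgeR adjusted p = 0.0155) and *Chd6* at 0.24 (adjusted p = 0.0219), both still past the threshold. *Chd1* missed it as given above, *Chd2* came to 0.075, and *Chd7* came to -0.088 (adjusted p = 0.578). The cause of the trend was not tested.

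**Figure D3:**
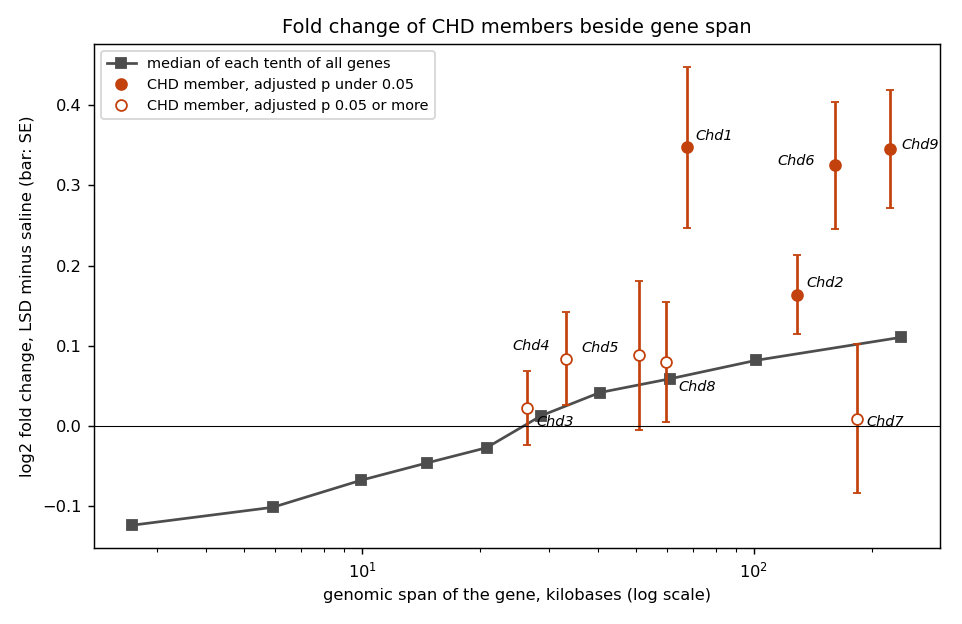
Log2 fold change, LSD minus saline (vertical axis, bars SE), of each CHD member against its genomic span in kilobases (log scale), with the medians of 10 equal classes of all genes by span as grey squares. *Chd1*, *Chd2*, *Chd6* and *Chd9* lie above the grey line by more than their SE, and *Chd7* lies below it.

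Of 12 NuRD subunit genes other than the motors, none was higher and 1 was lower, beside 6.48% higher and 8.54% lower over all genes tested, so these counts are near the background. Their log2 fold changes had a median of -0.021, with 5 of 12 above 0. The 1 was *Mbd3*, the methyl-CpG-binding-domain subunit that defines one form of NuRD, at 98.8 to 109 RPM in LSD rats and 105 to 145 RPM in saline rats. No LSD rat reached the saline median of 120 RPM, and 5 lay below the lowest saline rat. The log2 fold change was -0.22 (SE 0.051, edgeR adjusted p = 0.00888), and it kept its direction and call under all 9 other processings. *Mbd3* spans 9793 bases, in the range of shorter genes where calls were mostly lower.

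Of 19 other genes of SNF2-type motors listed, 18 were tested (*Hells* fell below the filter). Of these, 6 were higher and none was lower, beside 6.48% and 8.54% over all genes tested. The count of higher genes was 4 with the span offsets and 8 with scaling by total counts. Their log2 fold changes had a median of 0.15, and 16 of 18 lay above 0. The 4 with the smallest p-values were *Shprh*, a ubiquitin ligase of DNA damage tolerance (0.30, SE 0.068, edgeR adjusted p = 0.00871), *Smarca1*, the ISWI motor of postmitotic neurons (0.35, SE 0.086, adjusted p = 0.0115), *Atrx*, which places a variant histone in heterochromatin (0.34, SE 0.085, adjusted p = 0.0134), and *Btaf1*, which removes TBP from promoters (0.22, SE 0.061, adjusted p = 0.0189). In each of these 4 genes all 10 LSD rats lay above the saline median. The median span of this list was 86492 bases, against 24514 for all genes, and *Btaf1* was lost with the span offsets (adjusted p = 0.0637) while the other 3 named genes stood.

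Of 12 other proteins known to work with CHD members, 2 were higher and none was lower, beside 6.48% and 8.54% over all genes tested, and 4 were higher with scaling by total counts. The median of their log2 fold changes was 0.092. *Supt16h*, a subunit of the histone chaperone FACT that binds *Chd1* protein, ran from 67.8 to 85.0 RPM in LSD rats and from 58.8 to 75.1 RPM in saline rats (0.21, SE 0.050, edgeR adjusted p = 0.0100). *Pbrm1*, a subunit of the PBAF complex that binds *Chd7* protein, ran from 45.7 to 55.1 RPM and from 31.4 to 54.3 RPM (0.26, SE 0.070, adjusted p = 0.0166). *Adnp*, which joins *Chd4* protein in the ChAHP complex and is itself an autism gene, stood at 0.11 (SE 0.043) without passing (adjusted p = 0.0945). *Ctnnb1*, encoding the beta-catenin that *Chd8* protein binds, was at 0.028 (SE 0.043, adjusted p = 0.708). *Adnp* and *Ctnnb1* are named for these roles, after their values were seen.

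**Figure D4:**
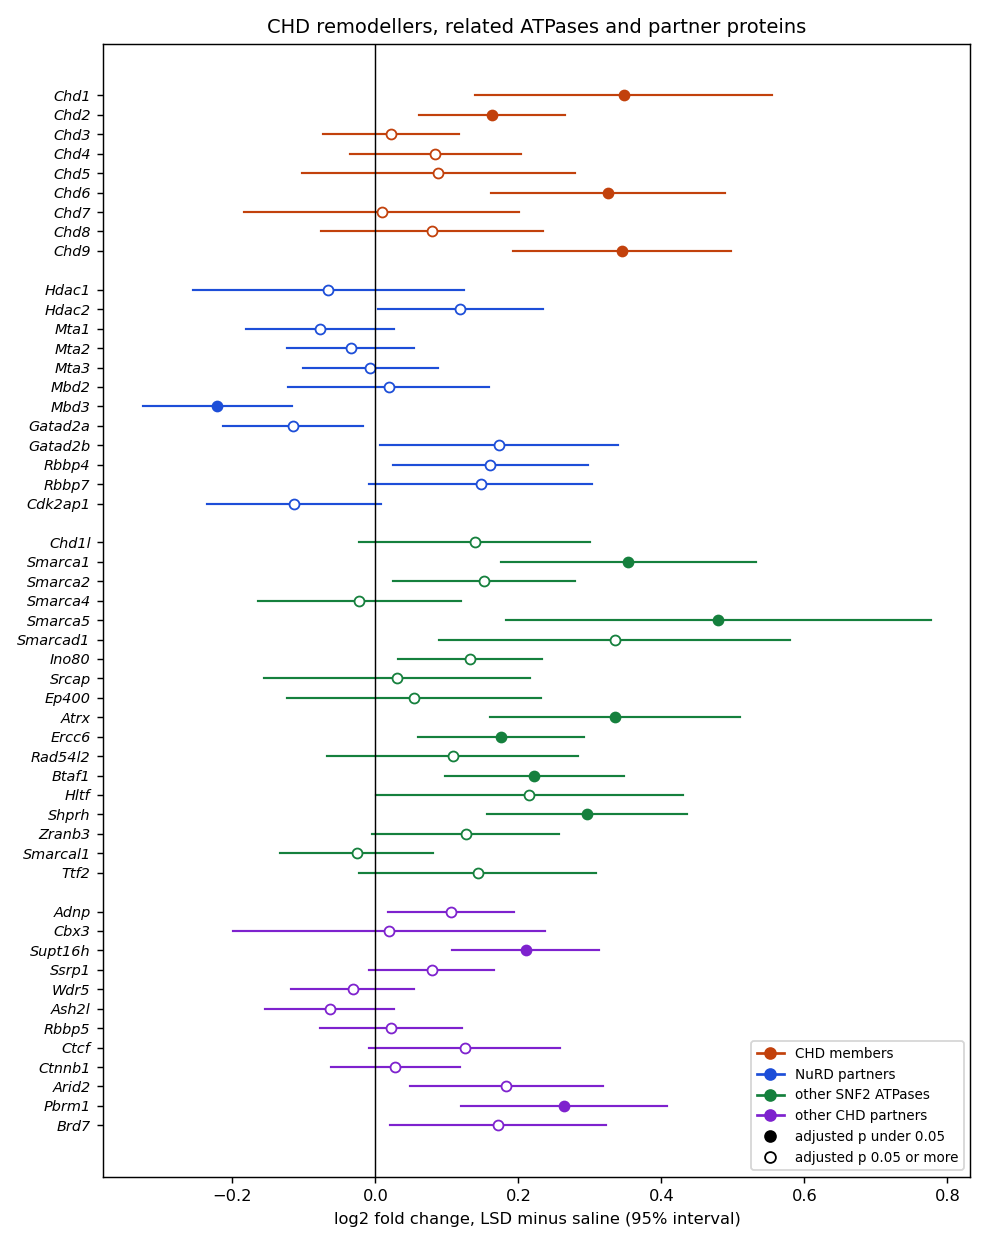
Log2 fold change, LSD minus saline, with its 95% interval (horizontal axis) for the CHD members, NuRD partners, other SNF2-type motors and other CHD partners, filled where the edgeR adjusted p is under 0.05. Of the 9 CHD members 4 are filled and all to the right of 0, as are 6 of 18 SNF2-type motors, whereas the single filled NuRD partner, *Mbd3*, lies to the left.

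The genes most like *Chd9* and *Chd6* across rats were sought by Pearson's r of log2(RPM + 1), centred within each group so that the difference between LSD and saline did not enter. For *Chd9* they were *Bmpr2*, a receptor for bone morphogenetic proteins (r = 0.930 over 20 rats), *LOC102546572* (r = 0.924) and *Cdk12*, a kinase of elongating RNA polymerase (r = 0.917). For *Chd6* they were *Smg1*, a kinase of nonsense-mediated decay (r = 0.937), *Peg3*, an imprinted zinc finger gene (r = 0.927), and *RGD1307100* (r = 0.923). Without the 2 rats farthest from the median these values were 0.848 to 0.888 for *Chd9* and 0.827 to 0.844 for *Chd6*. Rats share library-wide shifts such as the one with gene span, and these correlations are descriptions. All 6 were also higher in LSD rats, beside 6.48% over all genes tested. Their log2 fold changes were 0.28 to 0.41 (edgeR adjusted p = 0.0106 to 0.0379). They were picked for following *Chd9* or *Chd6* across rats that share such shifts, so this count is no separate result.

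**Figure D5:**
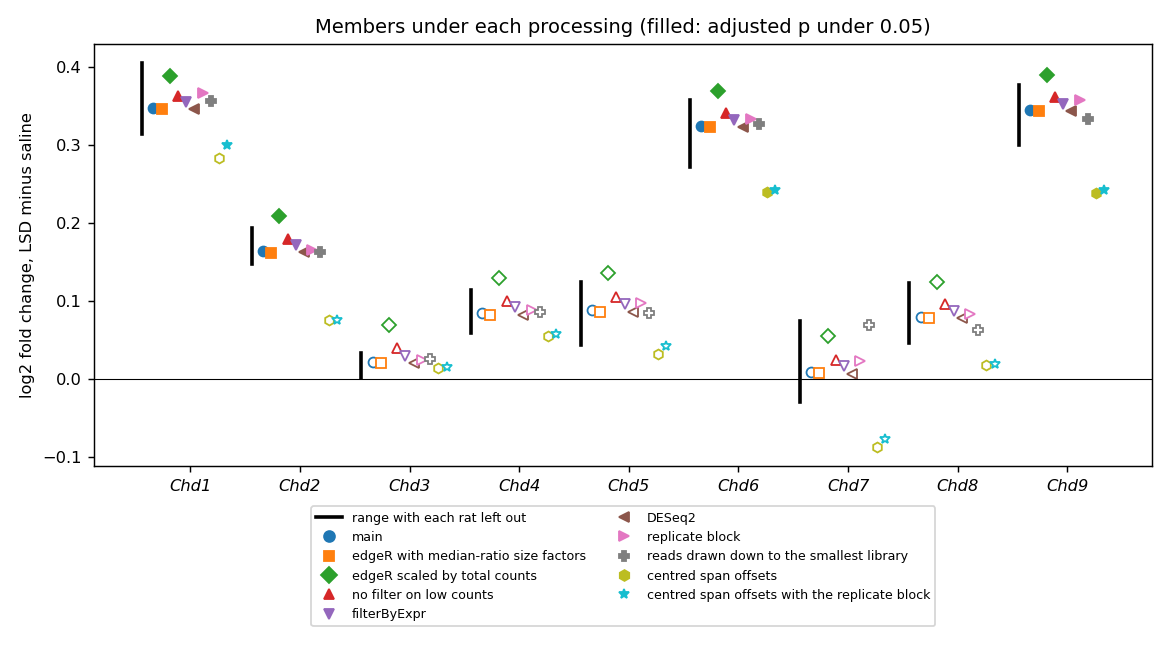
Log2 fold change, LSD minus saline (vertical axis), of each CHD member under the main processing and 9 others (symbols, filled where the adjusted p is under 0.05), with a bar for the range when each rat is left out. *Chd6* and *Chd9* stay filled and above 0 throughout, *Chd2* is open with the span offsets, *Chd1* is open with them unless the block is added, and *Chd7* falls below 0 there and in part of the fits without a rat.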

How the data were processed

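RNA-seq libraries of mPFC, 10 from LSD rats and 10 from Saline rats, were grouped by their labels. The authors used TrimGalore for trimming, Hisat2 for alignment to rn6 and HTSeq-count for counting, and the deposited values are raw counts per gene. Versions, annotation and strand setting are not given in the sources used here. The last 5 rows have no name and hold 25.5% to 29.0% of each library's counts, and they were left out. Symbols that reached 5 reads in 10 or more rats were tested with edgeR 4.0.16 in R 4.3.3 (quasi-likelihood F test after TMM normalisation, Benjamini-Hochberg adjustment over all genes tested, threshold 0.05). The SE is the log2 fold change divided by the root of F. Reads on genes numbered 11098076 to 25552681 per rat, and the error of a value is the spread over rats.

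Alternatives were median-ratio factors, total counts, no filter, filterByExpr, DESeq2 1.42.0 and the replicate number as a block. Others were reads drawn down to 11098076 per rat and offsets fitted to each rat's trend with gene span. Spans came from GRCr8, with 89.9% of genes tested matched by symbol. Those offsets were also run with the block, and each rat was left out in turn. The members and lists were chosen with earlier results of these data known. Named genes are all members, up to 4 called genes per direction of each partner list, by p-value, and the 3 genes most correlated with each of the 2 members of smallest p. Members also overlap genes in RefSeq: *Chd1* a *Chd1l2* entry that has no row of that name, *Chd7* a long non-coding RNA with at most 1 read per rat, and *Chd9* a pseudogene. Protein sequences and transcript lengths were not used here.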

Additional observations from a re-analysis of the deposited data

Results flagged for a closer look

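In all, 3 of the 18 groups of 10 rats examined, 9 members in 2 groups, held a rat far from the rest by Dixon's ratio, the gap to the nearest rat over the whole range of log2(RPM + 1), at its 95% critical value. Chance alone gives this in about 1 in 20 groups. *Chd2* in Saline replicate 8, at 73.5 RPM, had a ratio of 0.478. Without that rat the log2 fold change of *Chd2* was 0.19 (edgeR adjusted p = 0.00879). *Chd4* in LSD replicate 10, at 208 RPM, had a ratio of 0.575, and *Chd8* in the same rat, at 82.1 RPM, had a ratio of 0.7. Without that rat *Chd4* and *Chd8* stood at 0.11 and 0.12 and still did not pass (adjusted p = 0.184 and 0.235).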

How the results depend on the processing

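Over 9 other processings, 76 of 81 fits of a member kept direction and side of the threshold. *Chd9* (0.24 to 0.39) and *Chd6* (0.24 to 0.37) passed in all 9. With the span offsets 2 members passed in place of 4: *Chd1* came to 0.28 (adjusted p = 0.0510) and passed again with the block added, *Chd2* came to 0.075 without and with the block (adjusted p = 0.280 and 0.287), and *Chd7* turned to -0.088 and -0.077. *Gatad2a* joined *Mbd3*, so that 2 NuRD partners passed with these offsets, with or without the block. With total counts 4 other CHD partners passed in place of 2, *Adnp* and *Arid2* added, and the median of all genes shifted to 0.047. There 36.3% of 2362 calls were lower, against 56.9% of 2494 in the main test. Without a filter 1796 genes passed, and with the span offsets 1675.

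Leaving out each rat gave 3 to 4 members past the threshold, 1 NuRD partner, 4 to 8 SNF2-type motors, 2 to 3 other partners and 1632 to 3576 genes in all, the lowest without LSD replicate 8 and 1662 without Saline replicate 4. *Chd2* ranged from 0.15 to 0.19, *Chd7* from -0.030 to 0.075, *Chd1* from 0.31 to 0.41, *Chd6* from 0.27 to 0.36, *Chd9* from 0.30 to 0.38, *Chd3* from 0.0010 to 0.033, *Chd4* from 0.059 to 0.11, *Chd5* from 0.044 to 0.12 and *Chd8* from 0.046 to 0.12. The cause of these changes was not tested.

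Deviations of LSD and saline rats with the same replicate number correlated at 0.145 on average, and at -0.0157 with different numbers. The value was over 0.1 in 6 of 10 pairs, and 1 LSD and 2 saline rats correlated best with their own number. Whether replicate numbers mark a shared batch was not tested. With the replicate block 4 members passed, as did 1 NuRD partner, and 2961 genes in all, against 2494 in the main test. *Chd1* and *Chd7* rest on the fewest reads per rat.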

Other observations

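Saline rats differed among themselves in CHD transcripts more than LSD rats did. The coefficient of variation (CV, SD over mean RPM) was larger with saline for 9 of 9 members, with a median of 14.8% against 8.94% with LSD. The gap was wide for *Chd9* (15.1% and 6.17%) and *Chd1* (21.6% and 9.99%) and narrow for *Chd2* (8.09% and 5.85%). The CV was larger with saline for 77.5% of all genes tested as well, so the members stood in a pattern that most genes shared. With each rat left out, a choice made after seeing the data, 8 to 9 members kept the larger CV in saline. Without Saline replicate 9 the median over members was 11.3% with saline, and 70.9% of all genes had the larger CV there. Saline libraries were also shallower, with a median of 16815424 reads against 20271086. These values were not tested, and the part of depth in them was not tested.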
